A study of Drosophila melanogaster with 140 samples.

Results

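The RNA of brains whose neurons make human Aβ42 was compared with the RNA of brains in which the same driver makes a membrane-tethered green fluorescent protein. The comparison is fixed by the sample labels. It takes 6 libraries of the 140 in the count table, 3 replicates per group. Aβ42 brains carry the ElavGal4c155 driver and the transgene labelled UAS-AB(2x). Control brains carry the same driver with UAS-mcd8GFP. The driver is an insertion in elav on chromosome X that is active in neurons, and both UAS transgenes sit on chromosome 2. Flies were males kept at 25 °C, and brains were taken at 6 days of age. Whole-brain RNA was sequenced without immunoprecipitation. What all 6 libraries share is the driver and a transgene under its control, so neither group is wild type. The 2 UAS transgenes came from different stocks, and an effect of Aβ42 cannot be told apart from other differences between the stocks. The labels do not say whether replicates were separate crosses, so the p-values measure the spread between these libraries. The sources used here do not give the time of day of dissection.

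Aβ42 is the peptide that γ-secretase cuts from the amyloid precursor protein and that aggregates in Alzheimer's disease. In flies a signal peptide is commonly placed before it, so that it is made at the endoplasmic reticulum (ER) and secreted. Unfolded protein in the ER is sensed by the kinases Ire1 and PERK (PEK in flies) and by Atf6. Ire1 splices the mRNA of the transcription factor Xbp1, which raises ER chaperones and the machinery that returns misfolded proteins to the cytosol for degradation (ERAD). PERK phosphorylates the initiation factor eIF2α, which lowers general translation and raises the transcription factor Atf4 (crc in flies) and its targets, the integrated stress response. Neurons depend on mitochondrial oxidative phosphorylation, while glia and stressed cells can lean on glycolysis to lactate.

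The 6 brain libraries held 17513035 to 22746821 reads counted on genes. The first principal component held 54.3% of the variance of log2 CPM (a gene's read count relative to the TMM-scaled total of its library) and separated the groups. The second held 26.2%, with scores of −29.9 to 34.9 among Aβ42 brains and −12.9 to 2.8 among control brains. Correlations of log2 CPM were 0.959 to 0.982 among Aβ42 brains and 0.990 to 0.992 among control brains, so the Aβ42 group was the more variable. Aβ42 replicate 3 stood apart in transcripts of gut. A list of 42 digestive enzymes of the midgut, chosen after its values were seen, summed to 128, 154 and 4518 CPM in Aβ42 replicates 1, 2 and 3, against 99.1, 107 and 101 CPM in control brains. Only 7 of the 42 passed the filter on low counts. Aβ42 replicate 1 stood apart in heat shock genes. The driver gene elav had 261, 242 and 211 CPM in Aβ42 brains, against 226, 228 and 232 CPM in control brains, a log2 fold change of 0.06 ± 0.08 (SE) with an adjusted p of 0.61. The eye pigment gene w (white), whose mini-white form marks most fly transgenes, had 132, 137 and 129 CPM in Aβ42 brains and 65.1, 69.9 and 68.8 CPM in control brains, a log2 fold change of 0.96 ± 0.05 (adjusted p = 2.1e-05). Reads of the human transgene were not analysed here.

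Of 9759 genes tested, 1566 rose and 1464 fell in Aβ42 brains at an adjusted p under 0.05 (edgeR quasi-likelihood test, Benjamini-Hochberg over all genes tested), which is 16.0% rising and 15% falling. At least 2-fold changes numbered 413 up and 161 down, at least 4-fold changes 148 and 30, and at least 8-fold changes 76 and 14. Most decreases were therefore small and the large changes were mostly increases. The median log2 fold change of all genes tested was 0.016. The count of falling genes was 945 without Aβ42 replicate 2, and 826, 863 and 833 without control replicates 1, 2 and 3. The count of rising genes ran from 1146 to 2057 over the same omissions.

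Genes of the ER stress response rose among its sensors, its chaperones and its degradation machinery. Of 10 sensors and regulators, 6 rose and 0 fell, and their median log2 fold change was 0.49. The sensor PEK had 116, 121 and 120.5 CPM in Aβ42 brains and 64.6, 65 and 61 CPM in control brains (log2 fold change 0.91 ± 0.05, adjusted p = 2.3e-05). The sensor Ire1 had 137, 149 and 143 CPM in Aβ42 brains, against 94.2, 85.7 and 90.3 CPM in control brains (0.67 ± 0.06, adjusted p = 1.6e-04), with 12.3% of its exon bases shared with MICU3. Its target Xbp1 had 527, 532 and 536 CPM in Aβ42 brains, against 308, 275 and 299 CPM in control brains (0.86 ± 0.06, adjusted p = 5.6e-05). For these 3 genes each Aβ42 brain lay above each control brain. Counts per gene do not separate spliced from unspliced Xbp1. Atf6 had a log2 fold change of −0.08 ± 0.05 (adjusted p = 0.24) and crc one of 0.18 ± 0.07 (adjusted p = 0.11). Exons of crc share 73.5% of their bases with CG46314, so its reads are uncertain. PPP1R15, the phosphatase subunit that reverses eIF2α phosphorylation, rose by 0.26 ± 0.05 on the log2 scale (adjusted p = 0.0051).

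Most ER chaperones and folding enzymes rose. Of 19 tested, 15 rose and 1 fell, with a median log2 fold change of 0.95 against 0.016 over all genes tested. Manf and P58IPK stand in this list and in that of the sensors and regulators. The count of 15 rising members held with any 1 of the 6 libraries left out. Hsc70-3, the fly BiP, is the Hsp70 of the ER lumen and lies on chromosome X at 11801696 to 11807117 (dm6). It had 4707, 4362 and 3871 CPM in Aβ42 brains and 458, 418 and 478 CPM in control brains, a 9.55-fold increase (log2 3.25 ± 0.10, adjusted p = 3.4e-06). The lowest Aβ42 brain was far above the highest control brain. Gp93, the ER Hsp90, had 1181, 1105 and 1019 CPM in Aβ42 brains, against 152, 132 and 163 CPM in control brains (log2 2.89 ± 0.10, adjusted p = 3.5e-06). Manf, a secreted ER-resident trophic factor, had 171, 155 and 138 CPM in Aβ42 brains, against 29.7, 28 and 28.7 CPM in control brains (log2 2.43 ± 0.08, adjusted p = 3.5e-06). Sil1, the nucleotide exchange factor of BiP, rose by 2.32 ± 0.08, and the BiP co-chaperone P58IPK by 1.86 ± 0.09, on the log2 scale (adjusted p = 3.8e-06 and 1.8e-05).

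The ER exit and entry machinery followed. Of 25 genes listed for translocation and ERAD, 18 rose and 1 fell (median log2 fold change 0.64), and 16 to 20 rose when 1 library was left out. The 1 that fell, Trap1, encodes a mitochondrial Hsp90 and is not a gene of the ER machinery. Der-1, which moves substrates out of the ER, had 99.4, 90.4 and 89.3 CPM in Aβ42 brains, against 37.6, 37.9 and 34.8 CPM in control brains (1.34 ± 0.07, adjusted p = 1.6e-05). The ERAD scaffold Herp had 159, 156 and 146 CPM in Aβ42 brains and 60.5, 60.2 and 62.4 CPM in control brains (1.33 ± 0.05, adjusted p = 5.6e-06). Spase25, a subunit of the signal peptidase, rose by 1.12 ± 0.10, and Sec61beta, of the translocon, by 1.06 ± 0.07 (adjusted p = 1.6e-04 and 4.1e-05).

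**Figure D1:**
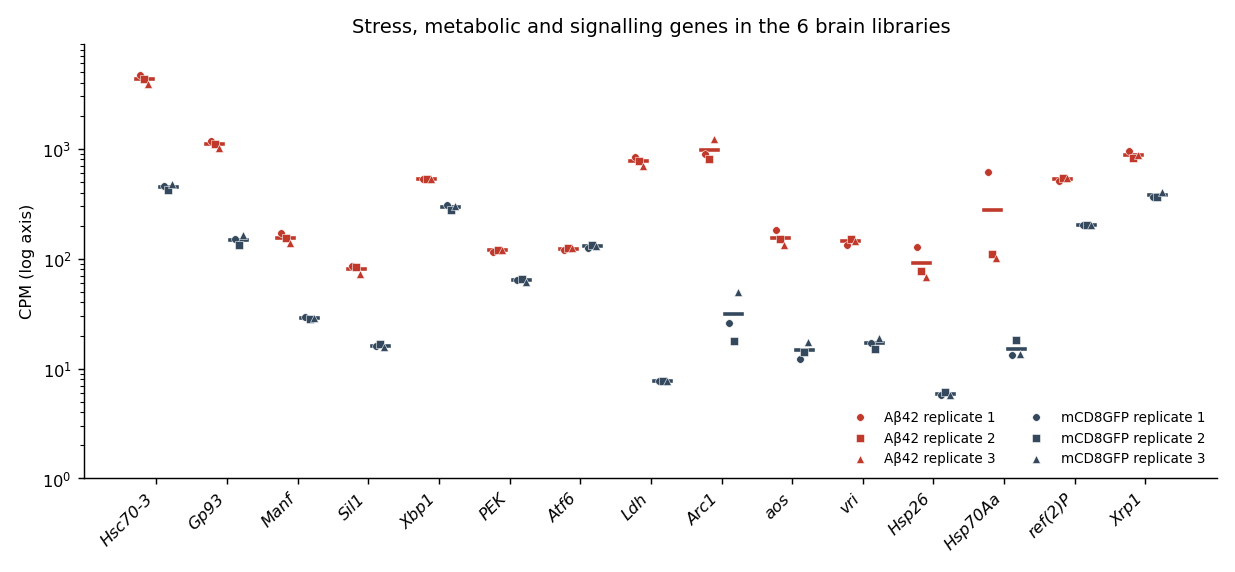
Level of 15 stress, metabolic and signalling genes in each of the 6 brain libraries (CPM, log axis), Aβ42 brains left of control brains for each gene, 1 point per library and bars at the group means. Points of Aβ42 brains lie above those of control brains for Hsc70-3, Gp93, Manf and Ldh, those of Atf6 lie close together, and Hsp70Aa has 1 Aβ42 library at 613 CPM and the others at 111 and 101 CPM.

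Part of the integrated stress response rose with it. Of 25 target genes, 9 rose and 1 fell, with 7 to 12 rising and 0 to 3 falling when 1 library was left out. The largest increase was in trbl (tribbles, a pseudokinase), with 23.2, 18.8 and 17.3 CPM in Aβ42 brains and 6.47, 6.72 and 7.73 CPM in control brains (1.50 ± 0.14, adjusted p = 2.2e-04). Gadd45 rose by 1.32 ± 0.10 (adjusted p = 8.6e-05). The bZIP partners Xrp1 and Irbp18, which act as a pair in stressed and growth-impaired fly cells, rose alike. Xrp1 had 946, 818 and 872 CPM in Aβ42 brains, against 363, 367 and 409 CPM in control brains (1.21 ± 0.08, adjusted p = 4.2e-05), and Irbp18 38.1, 33.6 and 34.7 CPM against 15.2, 15.2 and 15.5 CPM (1.21 ± 0.07, adjusted p = 3.9e-05). Exons of Irbp18 share 15.5% of their bases with CG33947.

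Enzymes that charge tRNAs for cytosolic translation rose as a group. Of 20 cytosolic tRNA synthetases, 16 rose and 0 fell, with a median log2 fold change of 0.68, and 14 to 17 rose when 1 library was left out. ValRS had 124, 139 and 128 CPM in Aβ42 brains, against 47.8, 45.7 and 46.5 CPM in control brains (1.48 ± 0.06, adjusted p = 5.6e-06). AspRS, AlaRS and SerRS rose by 1.32, 1.22 and 1.10 on the log2 scale. AspRS shares 63.9% of its exon bases with asRNA:CR45141, so its reads are uncertain. Of 43 translation factors, 24 rose and 3 fell (median 0.34), with 22 to 26 rising and 0 to 5 falling when 1 library was left out. They included eIF6, a factor of 60S subunit maturation, which rose by 0.97 ± 0.08 (adjusted p = 1.7e-04), and eIF2beta, a subunit of the complex that PERK targets, which rose by 0.70 ± 0.07 (adjusted p = 3.8e-04). Cytosolic ribosomal proteins split 6 up and 8 down of 85 (median −0.008), below the background shares, with 20 up and 9 down without Aβ42 replicate 1. With another library left out, 2 or 3 rose, and 3, 1, 1 and 1 fell without Aβ42 replicate 2 and control replicates 1, 2 and 3. The synthetases rose in heads as well, 18 of 20.

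Several cytosolic heat shock genes were higher in each Aβ42 brain than in any control brain, with a wide spread among the Aβ42 brains. Hsp26 had 127, 77.9 and 68.2 CPM in Aβ42 brains, against 5.74, 6.07 and 5.75 CPM in control brains (3.96 ± 0.28, adjusted p = 4.9e-04). Hsp23 had 89, 57 and 50.6 CPM in Aβ42 brains and 18.2, 20 and 18.8 CPM in control brains (1.79 ± 0.23, adjusted p = 0.0029). Both are small heat shock proteins, which hold unfolding clients. Hsp70Aa had 613, 111 and 101 CPM in Aβ42 brains and 13.4, 18.4 and 13.7 CPM in control brains (4.18 ± 0.99, adjusted p = 0.042). Its call was lost without Aβ42 replicate 2 or 3 (adjusted p = 0.065 and 0.051) and without control replicate 1, 2 or 3 (0.13, 0.12 and 0.13). The Hsp70 copies are near-identical, so how reads divide among them is uncertain. Hsp68 had 160.1, 51 and 45.9 CPM in Aβ42 brains, against 11.3, 12.4 and 10.3 CPM in control brains (2.91 ± 0.63, adjusted p = 0.029), and was not called without Aβ42 replicate 2 (0.051) or without control replicate 1, 2 or 3 (0.095, 0.09 and 0.098). Hsp27 missed the threshold (2.60 ± 0.85, adjusted p = 0.085) with 52.7, 10.2 and 10.2 CPM in Aβ42 brains, against 3.66, 4.08 and 4.26 CPM in control brains, and passed it without Aβ42 replicate 1 (1.35, adjusted p = 1.2e-04). Replicate 1 was the highest library for all of these genes. Of 15 members of the Hsp70 and Hsp90 family, 9 rose and 1 fell, and 5 rose without Aβ42 replicate 2 or without any 1 control library. This family list is not cytosolic alone. Its rising members include the ER chaperones Hsc70-3 and Gp93, given above, which kept their calls with any 1 library left out. The 1 that fell was the mitochondrial Trap1. Of 9 small heat shock proteins 3 rose, and 5 rose without Aβ42 replicate 1 or 3. In heads, where 2 Aβ42 libraries were close together, Hsp70Aa rose by 2.39 ± 0.15 (adjusted p = 1.1e-04) and Hsp68 by 1.26 ± 0.08 (adjusted p = 6.5e-08).

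Protein degradation outside the ER was read from the proteasome, autophagy and the lysosome. Of 32 proteasome subunits 4 rose and 0 fell, and 0 rose without Aβ42 replicate 3 or without any 1 control library, and 2 without Aβ42 replicate 2. Of 24 autophagy genes 8 rose and 1 fell, with 4 rising without Aβ42 replicate 2 or control replicate 3, 5 without control replicate 1 or 2 and 6 without Aβ42 replicate 3. The clear member was ref(2)P, the fly p62, an adaptor for ubiquitinated cargo. It had 509.5, 548 and 547 CPM in Aβ42 brains, against 203, 201 and 202 CPM in control brains (1.41 ± 0.05, adjusted p = 4.7e-06). Atg8a, the LC3 homolog, rose by 0.39 ± 0.07 (adjusted p = 0.0046). Of 19 lysosomal genes 1 rose and 7 fell, but the list did not move as a whole. Its median log2 fold change was −0.052, with 8 members positive and 11 negative. In brains 3, 4 and 4 fell without control replicates 1, 2 and 3, and 5 rose without Aβ42 replicate 1. In heads 5 rose and 4 fell. The hexosaminidases Hexo1 and Hexo2 fell by 0.73 ± 0.13 and by 0.52 ± 0.09 on the log2 scale (adjusted p = 0.0064 and 0.0046).

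Oxidative stress defence was mixed. PHGPx, a glutathione peroxidase of lipid peroxides, had 223, 209 and 202 CPM in Aβ42 brains and 79.5, 86.2 and 86.9 CPM in control brains (1.33 ± 0.06, adjusted p = 1.2e-05). The Nrf2 homolog cnc rose by 0.42 ± 0.07 (adjusted p = 0.0027). The mitochondrial enzymes Sod2 and Prx3 fell by 0.41 ± 0.07 and 0.39 ± 0.08 on the log2 scale (adjusted p = 0.0033 and 0.0067).

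Genes of DNA damage and cell death rose without a fall. Of 27 tested, 13 rose and 0 fell (median 0.30), and 12 to 14 rose when 1 library was left out. Xrp1 and Irbp18, given above, stand among the 13 and also in the list of integrated stress response targets. Ku80 and Irbp (the fly Ku70) bind DNA ends together in end joining. Ku80 had 32.6, 36.1 and 29.8 CPM in Aβ42 brains, against 10.4, 10.4 and 11.7 CPM in control brains (1.60 ± 0.10, adjusted p = 3.9e-05). Irbp had 22.1, 24.8 and 21.1 CPM in Aβ42 brains, against 9.06, 8.49 and 9.06 CPM in control brains (1.35 ± 0.09, adjusted p = 5.9e-05). In the JNK pathway, 6 of 20 genes rose and 2 fell, with 4 falling without Aβ42 replicate 1 and 1 without control replicate 1 or 2. Gadd45, also in the list of integrated stress response targets, was 1 of the 6. The JNK phosphatase puc, itself a JNK target, had 114, 124 and 119.5 CPM in Aβ42 brains and 51.9, 49.8 and 52.9 CPM in control brains (1.21 ± 0.05, adjusted p = 1.0e-05). The Fos homolog kay rose by 0.97 ± 0.09 (adjusted p = 2.6e-04), while the TNF ligand egr fell by 0.41 ± 0.08 (adjusted p = 0.0073).

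Immune effectors gave few calls in brains. Of 28 antimicrobial peptides and Bomanins tested, 0 rose and 1 fell, and the median log2 fold change was 0.73. The count of 0 became 5 without Aβ42 replicate 3 and 3 without control replicate 2. In heads 13 of 31 rose and 2 fell, with a median of 0.82, and the test of brains minus heads called 1 of 31. The 1 that fell, the immune-induced peptide IM33, had 141, 120.1 and 125 CPM in Aβ42 brains, against 164, 199 and 175 CPM in control brains (−0.48 ± 0.09, adjusted p = 0.0059). Of 33 Toll and Imd components 8 rose and 2 fell, with 4 rising without control replicate 1, 2 or 3, 6 without Aβ42 replicate 3 and 13 without Aβ42 replicate 1. The NF-κB factor dl (Dorsal) had 42.2, 46 and 40.9 CPM in Aβ42 brains and 13.6, 11.7 and 13.9 CPM in control brains (1.72 ± 0.09, adjusted p = 2.3e-05). The peptidoglycan receptor PGRP-LE and the IKK subunit key rose by 0.45 and 0.40 on the log2 scale. In JAK/STAT signalling the receptor dome rose by 0.30 ± 0.05 (adjusted p = 0.0047) and the feedback inhibitor Socs36E by 0.88 ± 0.05 (adjusted p = 2.5e-05), while Stat92E fell by 0.28 ± 0.06 (adjusted p = 0.0081). Among genes of the EGF receptor pathway, 3 of 24 rose and 3 fell (12.5% each, below the 16.0% and 15% of all genes tested), with 3 to 5 rising and 2 to 7 falling when 1 library was left out, the 5 and the 7 without Aβ42 replicate 1. The secreted inhibitor aos (argos) had 184, 151 and 133 CPM in Aβ42 brains, against 12.3, 14.3 and 17.6 CPM in control brains (3.40 ± 0.19, adjusted p = 1.4e-04). The receptor Egfr itself had 51.8, 57 and 56.7 CPM in Aβ42 brains and 85.1, 76.1 and 83 CPM in control brains (−0.56 ± 0.07, adjusted p = 7.3e-04).

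Energy metabolism divided between the cytosol and the mitochondrion. Lactate dehydrogenase, which interconverts pyruvate and lactate, is encoded by Ldh on chromosome 3L at 6259105 to 6262694. It had 851, 781 and 691 CPM in Aβ42 brains and 7.71, 7.69 and 7.78 CPM in control brains, a 100.1-fold increase (log2 6.65 ± 0.10, adjusted p = 1.0e-07). Of 13 glycolytic genes tested, 6 rose and 0 fell, 5 to 8 with 1 library left out. Ldh counts as one of these, and the others changed far less. Pgi rose by 0.75 ± 0.06 (adjusted p = 9.3e-05), Ald1 by 0.54 ± 0.09 (adjusted p = 0.0029), Eno by 0.33 ± 0.05 (adjusted p = 0.0031) and Pfk by 0.26 ± 0.05 (adjusted p = 0.005).

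Nuclear genes of mitochondrial respiration fell together by small amounts. Of 32 complex I genes tested, 31 fell and 0 rose, with a median log2 fold change of −0.38. Of 32 genes of complexes III to V, 28 fell and 0 rose (median −0.41). Of 24 genes of the TCA cycle and pyruvate dehydrogenase, 16 fell and 0 rose (median −0.32). With 1 library left out, 25 to 31, 22 to 31 and 12 to 19 members of these lists fell. ND-B14 of complex I had 52.7, 54.3 and 48.7 CPM in Aβ42 brains and 78.6, 80.5 and 76.2 CPM in control brains (−0.60 ± 0.06, adjusted p = 3.1e-04). COX4 of cytochrome c oxidase had 257, 249 and 251 CPM in Aβ42 brains, against 372, 395 and 359 CPM in control brains (−0.57 ± 0.05, adjusted p = 2.5e-04). The ATP synthase α subunit blw had 931, 939.8 and 952 CPM in Aβ42 brains, against 1371, 1304 and 1268 CPM in control brains (−0.48 ± 0.05, adjusted p = 5.4e-04). In fold terms these were 0.662, 0.673 and 0.716 of the control level. Members of these lists were named only where the groups did not overlap. Malate dehydrogenase Mdh2, the succinate dehydrogenase subunit SdhD, the pyruvate dehydrogenase subunit Pdhb and citrate synthase kdn fell by 0.55, 0.51, 0.46 and 0.43 on the log2 scale.

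The organelle's own transcripts gave few calls. Of 14 genes of the mitochondrial genome tested, 0 rose and 1 fell, with a median log2 fold change of 0.14, and 3 rose without control replicate 3. mt:CoI had 10087, 11596 and 11592 CPM in Aβ42 brains and 7826, 10062 and 12299.7 CPM in control brains (0.14 ± 0.16, adjusted p = 0.55), so the groups overlapped. The 1 that fell, mt:ND6, lost its call without control replicate 1 (adjusted p = 0.11), without control replicate 3 (0.092) and without Aβ42 replicate 2 or 3 (0.063 and 0.057). Mitochondrial transcripts made up 6.09, 6.64 and 6.58% of reads in Aβ42 brains, against 5.24, 6.51 and 7.24% in control brains. Of 15 genes of fatty acid oxidation 1 rose and 9 fell, with 5 to 10 falling when 1 library was left out and 5 without control replicate 3. The trifunctional protein subunit Mtpalpha and the dehydrogenase scu fell by 0.61 ± 0.06 and 0.73 ± 0.08 on the log2 scale (adjusted p = 2.3e-04 and 5.6e-04). Of 72 mitochondrial ribosomal proteins 0 rose and 21 fell, with 8 falling without Aβ42 replicate 2, 13 without Aβ42 replicate 3 and 11, 4 and 6 without control replicates 1, 2 and 3.

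**Figure D2:**
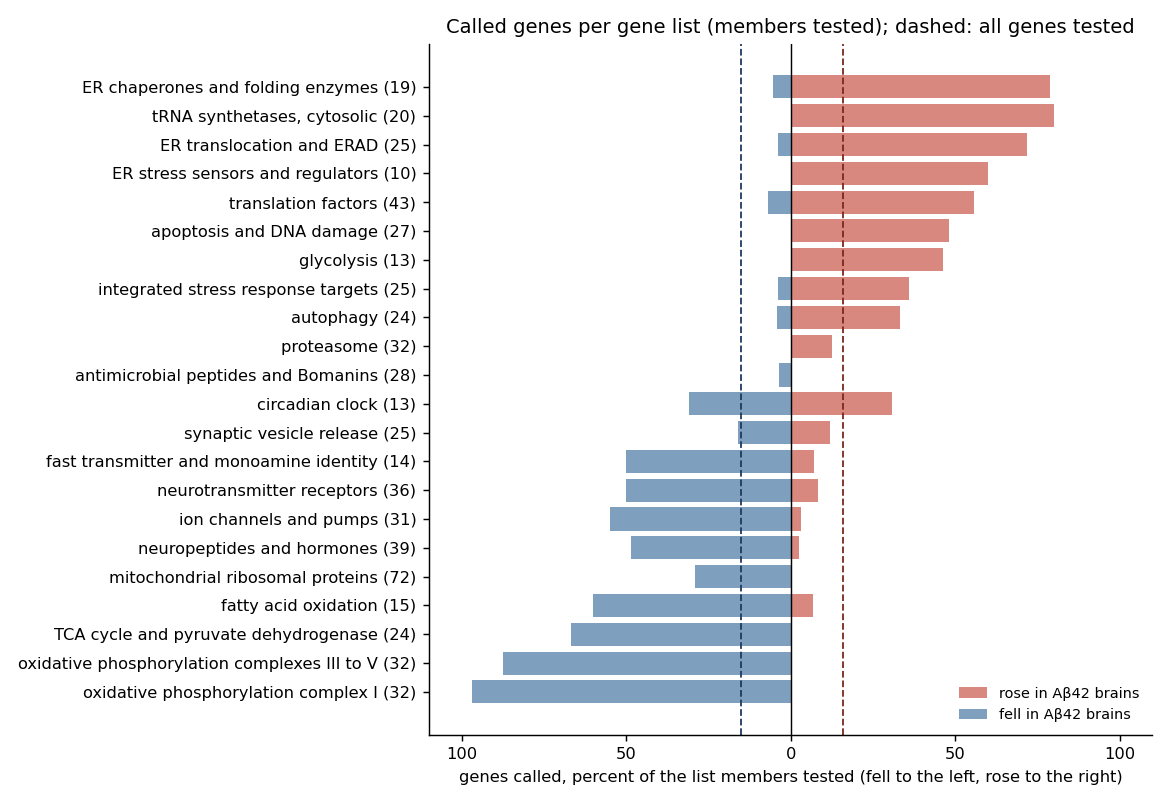
Share of the tested members (x axis, percent, number tested in parentheses) that rose in Aβ42 brains, to the right of 0, or fell, to the left, for a selection of the 58 gene lists. Dashed lines mark the shares of all genes tested (16.0% and 15%). Lists not drawn include some near these shares, such as P450 genes and the EGF receptor pathway. Bars of ER, tRNA synthetase and translation factor lists reach far to the right, and those of respiratory complexes and the TCA cycle far to the left with no bar to the right.

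Transmitter identity, receptors and ion channels each held more falling than rising genes. Of 14 genes of transmitter identity, 7 fell and 1 rose, and 2 rose without Aβ42 replicate 3. Tbh, which makes octopamine, had 42.7, 36.4 and 37.2 CPM in Aβ42 brains, against 76.7, 82.6 and 73.3 CPM in control brains (−1.0 ± 0.08, adjusted p = 1.2e-04). The serotonin transporter SerT fell by 0.53 ± 0.12 (adjusted p = 0.013) and the vesicular monoamine transporter Vmat by 0.44 ± 0.08 (adjusted p = 0.0059), while Trh, the neuronal enzyme of serotonin synthesis, rose by 0.45 ± 0.09 (adjusted p = 0.0064). Exons of Vmat share 26.2% of their bases with CG13330.

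Of 36 neurotransmitter receptors 18 fell and 3 rose. The count that fell was 9 without Aβ42 replicate 2, 13 without Aβ42 replicate 3 and 9, 7 and 11 without control replicates 1, 2 and 3. The count that rose was 5 without Aβ42 replicate 1, 7 without Aβ42 replicate 3 and 2 or 3 without any other library. The acetylcholine receptor subunit nAChRalpha3, the octopamine receptor Octbeta2R and the GABA receptor-like subunit Grd fell by 0.39, 0.52 and 0.50 on the log2 scale. The muscarinic receptor mAChR-A had 461, 408 and 367 CPM in Aβ42 brains and 211, 224 and 197 CPM in control brains (0.97 ± 0.09, adjusted p = 2.6e-04). DopEcR, which binds both dopamine and ecdysone, rose by 0.49 ± 0.06 (adjusted p = 0.001). Of 31 ion channels and pumps 17 fell and 1 rose, with 11 falling without any 1 control library, 13 without Aβ42 replicate 3 and 25 without Aβ42 replicate 1. The potassium channels eag, KCNQ and Irk3 fell by 0.58, 0.57 and 0.69 on the log2 scale. KCNQ shares 20.6% of its exon bases with asRNA:CR45133, and Grd 27.5% with CG5577. The voltage-gated sodium channel para had 1705, 1486 and 1389 CPM in Aβ42 brains, against 2015, 1968 and 2119.6 CPM in control brains (−0.41 ± 0.08, adjusted p = 0.0081). Each Aβ42 brain was below each control brain. Among 25 genes of vesicle release 3 rose and 4 fell, which is 12% and 16%, near the 16.0% and 15% of all genes tested, with 12 falling without Aβ42 replicate 1, 2 without Aβ42 replicate 2 or control replicate 1 or 2, and 4 rising and 3 falling without Aβ42 replicate 3. The calcium sensor Syt1 fell by 0.37 ± 0.06 (adjusted p = 0.004), and Sytalpha and Rab3 rose by 0.61 and 0.48 on the log2 scale.

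Neuropeptides fell in the main, with 1 exception. Of 39 neuropeptide and hormone genes tested, 19 fell and 1 rose, with a median log2 fold change of −0.53, and 14 to 26 fell when 1 library was left out. Proc, which encodes proctolin, was the 1 that rose. It had 337, 257 and 228 CPM in Aβ42 brains, against 84.9, 92.7 and 92 CPM in control brains (1.61 ± 0.15, adjusted p = 6.6e-04). Pdf, the peptide of the ventral lateral clock neurons, had 64.4, 58.1 and 61.4 CPM in Aβ42 brains and 157, 157 and 151 CPM in control brains (−1.34 ± 0.05, adjusted p = 6.4e-06). ITP, an ion transport peptide, had 66.5, 57.6 and 55.4 CPM in Aβ42 brains, against 156, 138 and 152 CPM in control brains (−1.31 ± 0.08, adjusted p = 4.3e-05). SIFa, made by a handful of median neurosecretory cells, had 7.28, 2.16 and 2.33 CPM in Aβ42 brains and 16, 15.9 and 13.5 CPM in control brains (−1.96 ± 0.53, adjusted p = 0.045). Its call held without Aβ42 replicate 1 and was lost without any other library, at adjusted p of 0.099 to 0.11. In bulk RNA fewer cells of a type and less RNA per cell cannot be told apart.

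Genes that answer neuronal activity did not move one way. Arc1, whose Gag-like protein forms capsids that carry its own mRNA between cells, had 906, 806 and 1223 CPM in Aβ42 brains and 25.9, 18 and 49.7 CPM in control brains (4.97 ± 0.51, adjusted p = 0.0031). Its neighbour Arc2 had 19.7, 17.4 and 19.4 CPM in Aβ42 brains, against 1.58, 0.914 and 1.24 CPM in control brains (3.92 ± 0.19, adjusted p = 1.5e-05). The pseudogene CR10102, at 14360433 to 14361780 between Arc1 and Arc2 on chromosome 2R, rose by 5.18 ± 0.47 (adjusted p = 0.002). Hr38, an activity-induced nuclear receptor, had 27.7, 23.4 and 21.5 CPM in Aβ42 brains, against 56.6, 56.7 and 63.8 CPM in control brains (−1.29 ± 0.11, adjusted p = 1.3e-04). The ER calcium pump SERCA had 552, 501 and 479 CPM in Aβ42 brains and 361, 338 and 335 CPM in control brains (0.57 ± 0.07, adjusted p = 8.0e-04), with 16.0% of its exon bases shared with CG2812. The kinesin-1 chains Khc and Klc, which carry cargo down axons, each rose by 0.38 ± 0.05 (adjusted p = 0.0013). Of 38 genes of axon guidance and adhesion, Fas3 rose by 0.99 ± 0.06 (adjusted p = 4.7e-05) and Dscam3 fell by 0.38 ± 0.05 (adjusted p = 7.5e-04). In the list as a whole 5 rose and 11 fell, with 17 falling without Aβ42 replicate 1 and 3 to 5 without Aβ42 replicate 2 or 3 or any 1 control library.

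Of 17 fly homologs of Alzheimer's disease genes 5 rose and 5 fell, 29.4% each, against 16.0% and 15% of all genes tested. The γ-secretase subunit Nct (nicastrin) rose by 0.45 ± 0.07 (adjusted p = 0.0027), with 12.9% of its exon bases shared with HDAC11. Nep1, of the neprilysins that degrade Aβ in flies and mammals, had 30.7, 34.3 and 28.6 CPM in Aβ42 brains, against 49.4, 49.6 and 47 CPM in control brains (−0.64 ± 0.08, adjusted p = 0.001). The list's counts depended on single libraries, with 7 up and 7 down without Aβ42 replicate 1, 1 and 1 without Aβ42 replicate 2, and 1 to 3 in each direction without any 1 control library. Appl, the fly homolog of the precursor protein, had a log2 fold change of −0.33 ± 0.08 (adjusted p = 0.015) and was not called without Aβ42 replicate 2 (0.065), control replicate 1 (0.054) or control replicate 3 (0.065). Of 9 writers and readers of m6A, the RNA mark the series is about, 2 rose (22.2%) and 1 fell (11.1%), near the shares of all genes tested. With 1 library left out 0 to 2 rose and 0 to 3 fell, and none in either direction without Aβ42 replicate 2 or control replicate 2 or 3. Mettl3, the methyltransferase, had 3.9, 3.97 and 2.89 CPM in Aβ42 brains and 3.1, 3.12 and 3.76 CPM in control brains (0.10 ± 0.20, adjusted p = 0.72). The nuclear reader Ythdc1 had 248, 217 and 202 CPM in Aβ42 brains and 247, 258 and 237 CPM in control brains (−0.15 ± 0.08, adjusted p = 0.18), and was called without Aβ42 replicate 1 (−0.24, adjusted p = 0.0089).

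The largest single changes lay partly outside these pathways. The P450 gene Cyp4p2, on chromosome 2R at 9237512 to 9239831, had 40.7, 48.7 and 61.3 CPM in Aβ42 brains, against 0.788, 1.24 and 0.842 CPM in control brains (5.71 ± 0.24, adjusted p = 2.1e-05). MFS3, a transporter of the major facilitator family at 1143201 to 1147395 on 2L, had 125, 126 and 103 CPM in Aβ42 brains and 4.22, 4.35 and 2.43 CPM in control brains (5.01 ± 0.25, adjusted p = 1.0e-04). These were 52.3-fold and 32.3-fold increases. CG9313, CG8620 and lncRNA:CR43264 rose by 5.36, 4.97 and 5.01 on the log2 scale, CG9313 with 6.7% of its exon bases shared with CG15651. CG13855 was counted at 9.15, 11 and 10.3 CPM in Aβ42 brains and at 0, 0 and 0.0991 CPM in control brains, where its reads numbered 0, 0 and 2, too few for a fold.

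Among genes with at least 10 CPM in control brains, the deepest called decrease was in FBgn0010549, a gene of the ABC transporter family on 2R at 9390165 to 9395281. It had 0.565, 0.0902 and 0.0862 CPM in Aβ42 brains, against 22.3, 17.8 and 23.7 CPM in control brains (−6.51 ± 0.57, adjusted p = 9.1e-04), and in heads 0.198 and 0.198 CPM in Aβ42 against 40.4, 38.8 and 40 CPM in controls. In both tissues the Aβ42 libraries held under 1 CPM of it. CG10936, on 2R at 17604951 to 17639138, had 0.847, 0.857 and 1.25 CPM in Aβ42 brains, against 26.6, 28.8 and 29 CPM in control brains (−4.82 ± 0.16, adjusted p = 3.5e-06). In heads it had 11.4 and 10.5 CPM in Aβ42, against 27.8, 27.7 and 30 CPM in controls. The zinc transporter gene ZnT33D, the zinc finger gene CG6654, lncRNA:CR45997 and CG14567 had log2 fold changes of −2.77, −2.24, −2.40 and −2.10. Among the 12 largest decreases, Lsp1beta lost its call without Aβ42 replicate 3 or any 1 control library, Obp99b without any library but Aβ42 replicate 2, Cda9 without any but Aβ42 replicate 3, and TotX without any 1 Aβ42 library or control replicate 1, at adjusted p of up to 0.11, 0.12, 0.14 and 0.13.

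Clock genes changed differently in brains and heads. The fly clock turns on Clk and cyc, which activate per, tim, vri and Pdp1, whose proteins feed back on them. In brains 4 of 13 clock genes rose and 4 fell. vri had 134, 152 and 146 CPM in Aβ42 brains and 17.2, 15.2 and 19.1 CPM in control brains (3.07 ± 0.10, adjusted p = 3.5e-06). tim had 191, 340.1 and 359 CPM in Aβ42 brains, against 77.1, 75.4 and 82.1 CPM in control brains (1.92 ± 0.26, adjusted p = 0.0056), and per rose by 1.52 ± 0.11 (adjusted p = 7.8e-05). The repressor cwo rose by 0.44 ± 0.07 (adjusted p = 0.0027). Clk had 18.6, 18.2 and 19.3 CPM in Aβ42 brains, against 41, 41.7 and 38.4 CPM in control brains (−1.11 ± 0.07, adjusted p = 3.9e-05), and the photoreceptor cry fell by 0.75 ± 0.07 (adjusted p = 2.9e-04), with 17.4% of its exon bases shared with lncRNA:CR46393. cyc, whose mRNA does not cycle in wild-type flies, had a log2 fold change of −0.01 ± 0.06 (adjusted p = 0.88).

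In heads the same genes had another pattern. vri had 121 and 125 CPM in Aβ42 heads, against 133, 217 and 209 CPM in control heads (−0.60 ± 0.27, adjusted p = 0.2). tim had 185 and 211 CPM in Aβ42 heads, against 389.5, 610.0 and 507 CPM in control heads (−1.35 ± 0.23, adjusted p = 0.015). The control heads were thus well above the control brains in vri and tim, and the control replicates of heads were spread. The Aβ42 effect in brains minus that in heads was 3.58 ± 0.27 for vri, 3.18 ± 0.37 for tim and 1.96 ± 0.23 for per (adjusted p = 8.5e-04, 0.006 and 0.0045), and −1.06 ± 0.14 for Clk and −0.83 ± 0.12 for cry (adjusted p = 0.0039 and 0.0072). For vri, per and Clk these differences were called under all 16 alternatives tried, and for tim and cry under 14 of 16. The collection times are not given, and an effect of the time of day cannot be told apart from the genotype in either tissue. Pdf, by contrast, fell in heads as in brains, with 28.4 and 33.3 CPM in Aβ42 heads and 62.6, 63.5 and 65.3 CPM in control heads (−1.05 ± 0.08, adjusted p = 4.0e-07).

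**Figure D3:**
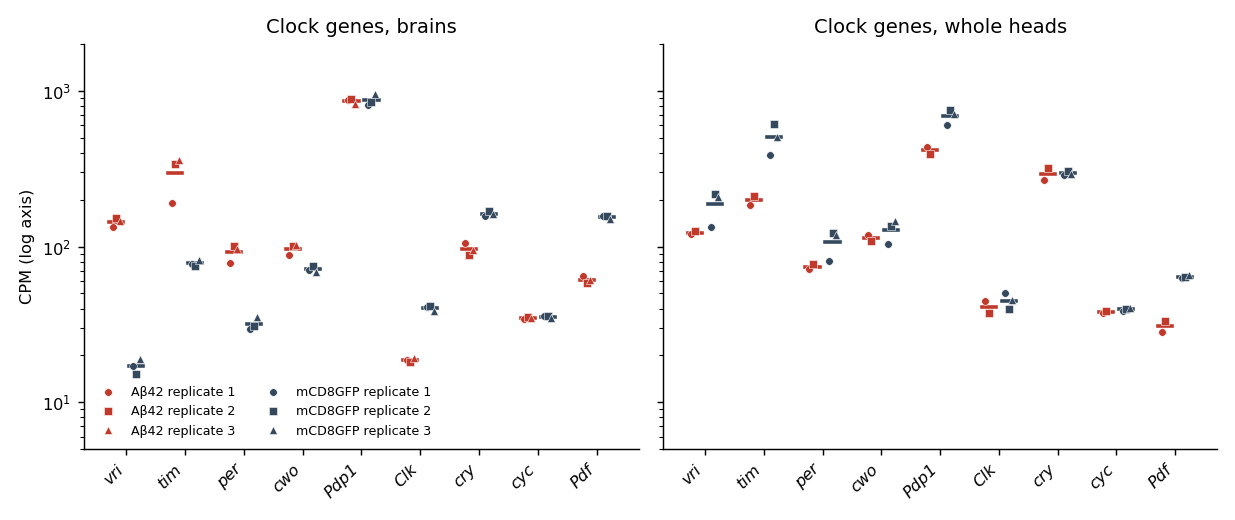
Levels of clock genes and Pdf (CPM, log axis) in brains on the left (3 Aβ42, 3 control libraries) and heads on the right (2 Aβ42, 3 control libraries), 1 point per library and bars at the group means, Aβ42 left of control. In brains vri, tim and per are higher in every Aβ42 library than in any control library and Clk is lower, while in heads vri and tim are lower in both Aβ42 libraries than in any control library.

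Heads give a separate set of libraries for the same genotypes and age. They were the inputs of immunoprecipitations and were prepared with another kit, with 2 Aβ42 and 3 control libraries of 19805911 to 21351930 reads. Of 10210 genes tested in heads, 18.5% rose and 17.5% fell. Of the genes that rose in brains and were tested in heads (1532), 1049 (68.5%) rose there and 11 fell, against 19% and 17.7% of all brain genes tested in heads. Of 1455 that fell in brains, 903 (62.1%) fell in heads and 14 rose. ER chaperones (14 of 20 up in heads) and tRNA synthetases kept the pattern, with Hsc70-3 at 3037 and 3071 CPM in Aβ42 heads and 682, 581 and 643 CPM in control heads (2.26 ± 0.07, adjusted p = 4.1e-11). Ldh had 440.1 and 446 CPM in Aβ42 heads, against 16.1, 16.2 and 21 CPM in control heads (4.64, adjusted p = 1.5e-09). Fewer respiratory genes were called in heads, 12 of 32 for complex I and 11 of 32 for complexes III to V, all lower.

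A test of the difference itself, brains minus heads, called 100 of 10732 genes higher (0.932%) and 192 lower (1.79%) in brains. These shares depended on scaling, with 34.2% of called genes higher in the main fit, 58.3% under RLE scaling and 50.6% with DESeq2. The median difference was −0.055 in the main fit and 0.023 under RLE scaling, so small negative differences are not separable from scaling. For COX4, ATPsynE and ND-19 the differences of −0.45, −0.45 and −0.47 were called in the main fit and under 6, 4 and 3 of 16 alternatives. Some larger differences did not depend on these settings. The effect was greater in brains by 1.92 for Ldh, 2.04 for Cyp4p2, 1.29 for dl and 0.85 for SERCA, and lower in brains by −3.52 for CG10936, and these 5 were called under all 16 alternatives. SERCA moved in opposite directions, with 804 and 737 CPM in Aβ42 heads and 1024, 977 and 987 CPM in control heads (−0.37 ± 0.06, adjusted p = 4.1e-04). Of 10 muscle markers tested in heads 7 fell (median −0.30), while of 9 tested in brains 0 fell (median 0.26). A part of muscle in the SERCA difference was not tested. Without Aβ42 head replicate 1 the counts were 37 higher and 105 lower, and without Aβ42 head replicate 2 they were 13 and 28. Without Aβ42 brain replicate 1 they were 225 and 610. Without control brain replicate 1, 2 or 3 they were 139, 154 and 167 higher and 40, 61 and 43 lower, and without control head replicate 1, 2 or 3 they were 158, 141 and 145 higher and 42, 37 and 42 lower.

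**Figure D4:**
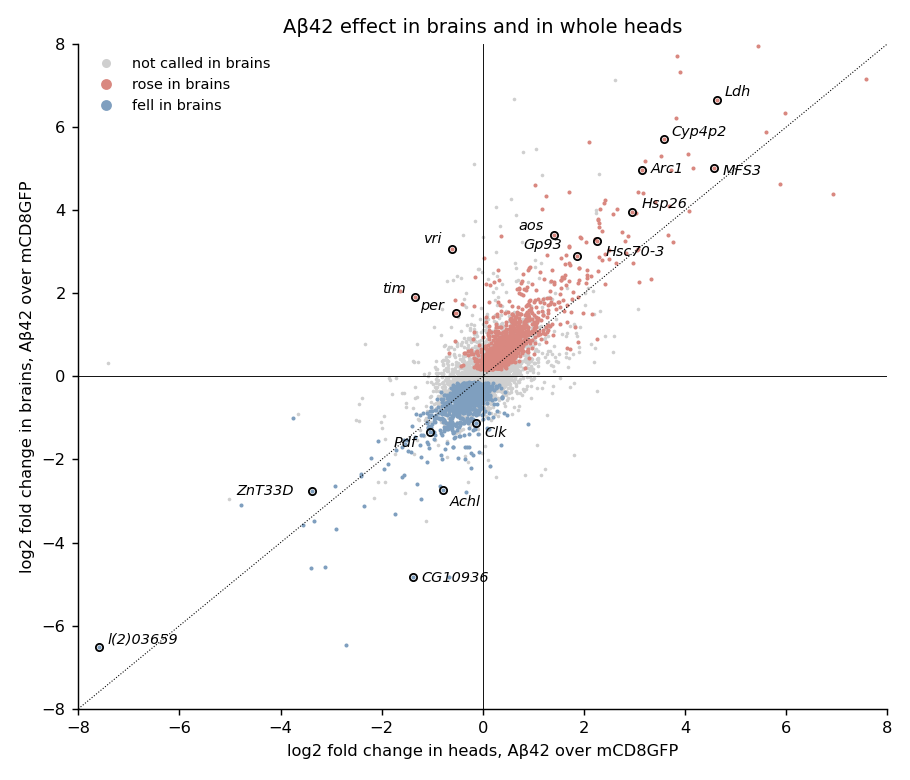
Log2 fold change of Aβ42 over control in brains (y axis) against that in heads (x axis) for 9516 genes tested in both, 7 of which lie outside the axes, with genes called in brains in colour and the dotted line at equal change. Most genes called in brains spread along that line, and vri, tim and per sit above it at the left.

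Ageing was set beside these changes with another set of brain libraries, 34 days against 5 days (4 each). These are the inputs of TRAP, an immunoprecipitation of tagged ribosomes, from flies in which another elav driver (elav3A) makes the tagged ribosomal protein UAS-RPL3-FLAG and mCherry RNAi, so driver, transgenes and library kit differ from those of the Aβ42 comparison. Of 9462 genes tested there, 5.61% rose and 7.28% fell with age. Of 1405 genes that fell in Aβ42 brains and were tested with age, 269 (19.1%) fell with age and 65 (4.63%) rose, against 7.4% and 5.69% of all brain genes tested there. Of 1421 that rose in Aβ42 brains, 116 (8.16%) rose with age and 41 (2.89%) fell. Respiratory genes made up part of the shared decrease, with 32 of 32 genes of complexes III to V and 28 of 33 complex I genes lower at 34 days. COX4 fell by 1.17 on the log2 scale with age (adjusted p = 2.8e-04) and blw by 1.21 (adjusted p = 1.6e-04). Among ER genes, Hsc70-3 rose by 0.49 with age (adjusted p = 0.02) and Gp93 by 0.86 (adjusted p = 0.017), while Manf had a log2 change of 0.24 (adjusted p = 0.43). Ldh had a log2 change of 0.71 with age (adjusted p = 0.16). Counts with age moved with single libraries, to 256 up and 442 down without 34-day replicate 1. They were 349 up without 34-day replicate 2, 353 up and 454 down without 34-day replicate 3, and 348 up without 5-day replicate 4.

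The changed genes were also set beside their levels in cells sorted from brains of 5-day-old flies. In these flies RepoGal4, a glial driver, makes UAS-mcD8GFP and mCherry RNAi. GFP+ cells (repoGFP+, glia) were set against GFP− cells (repoGFP−, 3 each). Per the study's methods, small pools of dissociated cells were sorted and their libraries made with SMART-seq, another kit than that of the brains. Of 9181 genes tested, 13.3% were higher and 4.77% lower in glia. Of 1317 genes that fell in Aβ42 brains and were tested there, 282 (21.4%) were higher in glia, against 13.7% of all brain genes tested in the sorted cells, and 107 (8.12%) were lower, against 5.05%. Of 1418 that rose, 135 (9.52%) were higher in glia. The count lower in glia was 210, 147 and 148 without repoGFP− replicates 1, 2 and 3. Among the glial members, ImpL2, a secreted inhibitor of insulin signalling that was higher in glia by 5.68 log2 units (adjusted p = 1.4e-05), had 39.5, 42.3 and 59.1 CPM in Aβ42 brains and 91.4, 92.6 and 94.1 CPM in control brains (−0.98 ± 0.15, adjusted p = 0.0051). Exons of ImpL2 share 61.9% of their bases with CG46460. The insulin receptor InR rose by 0.68 ± 0.08 (adjusted p = 8.8e-04).

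Marker lists of the cell types in a dissected brain were lower in Aβ42 brains. Neuron markers summed to 10298, 9227 and 8672 CPM in Aβ42 brains, against 10843, 11016 and 11035 CPM in control brains (ratio 0.857), and 3 of 10 fell and 0 rose, 5 falling without Aβ42 replicate 1. All 10 neuron, 14 glia and 14 photoreceptor markers passed the filter on low counts. Glia markers summed to 5275, 4510.0 and 4543 CPM in Aβ42 brains, against 6018, 5808 and 5956 CPM in control brains (ratio 0.806), and 8 of 14 fell. Among them repo, the glial fate gene, fell by 0.30 ± 0.06 (adjusted p = 0.0079), the astrocyte gene alrm by 0.51 ± 0.06 (adjusted p = 7.5e-04), the glutamate transporter Eaat1 by 0.39 ± 0.05 (adjusted p = 0.0011) and the blood-brain barrier transporter Mdr65 by 0.57 ± 0.11 (adjusted p = 0.01).

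Markers of tissue that can stay attached to a brain at dissection were mostly lower too. Photoreceptor markers summed to 31106, 39737 and 36435 CPM in Aβ42 brains and 55546, 60784 and 55137 CPM in control brains (ratio 0.626), with 9 of 14 lower. The main rhodopsin ninaE had 13373, 16528 and 15252 CPM in Aβ42 brains, against 25098, 27306 and 25297 CPM in control brains (−0.78 ± 0.09, adjusted p = 8.0e-04), and also fell in heads (−0.54, adjusted p = 1.2e-07). Hemocyte markers summed to 992, 884 and 836 CPM in Aβ42 brains and 1458, 1321 and 1371 CPM in control brains (ratio 0.653), with Hml at −1.69 ± 0.18 (adjusted p = 0.0016). Fat body markers had a ratio of 0.661. Of 8 tested, 2 fell (25%, against 15% of all genes tested) and 0 rose, and 3 had a positive log2 fold change. The lipoprotein gene apolpp had the lowest, at −1.29 ± 0.11 (adjusted p = 1.6e-04). Antenna markers had a ratio of 0.242, at 142, 53.8 and 131 CPM in Aβ42 brains and 342, 544 and 464 CPM in control brains. Of 6 tested, 1 fell (16.7%) and 0 rose, and 0 fell without Aβ42 replicate 1 or 3 or any 1 control library. For these 6 sums each Aβ42 brain was below each control brain. An exact permutation test gave p = 0.1 for each, the smallest that 3 against 3 allows. Muscle markers had a ratio of 1.21 (exact p = 0.7). Their part in the decreases given above was not tested.

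**Figure D5:**
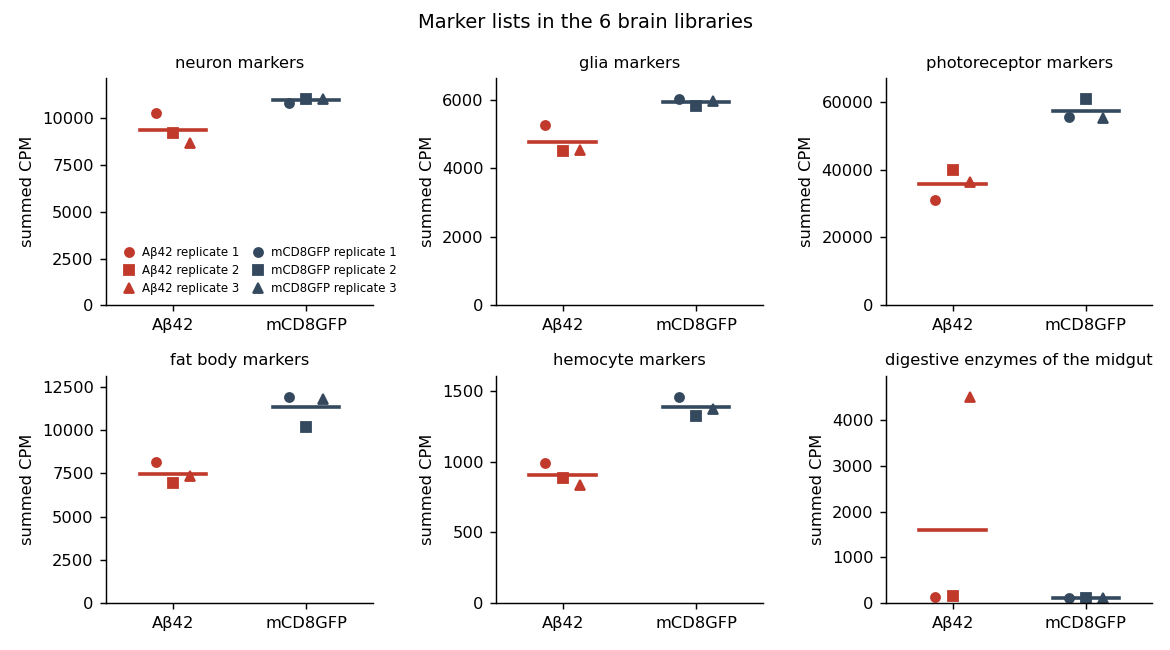
Summed CPM (y axes, from 0) of 5 marker lists and of the midgut enzymes in each brain library, Aβ42 left of control, 1 point per library and bars at the group means. Neuron, glia, photoreceptor, fat body and hemocyte sums are lower in every Aβ42 brain than in any control brain, and midgut enzymes are high in Aβ42 replicate 3 alone, at 4518 CPM.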

How the data were processed

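The table deposited by the authors holds counts of reads per gene, whole numbers that were not normalized. Per the labels, brain libraries came from a stranded mRNA kit. Per the study's methods, head and TRAP input libraries came from a stranded total RNA kit. Head RNA had first been selected for poly(A) and fragmented, while no such selection is stated for TRAP inputs. The methods also state that reads were trimmed with Trim Galore and aligned to dm6 with STAR 2.7.3a. Reads were then counted over FlyBase exons with summarizeOverlaps. Whether the counting used strand is not given in the sources used here, so reads of overlapping and antisense genes cannot be told apart.

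Libraries were grouped by their titles. The deposited counts of 17562 genes were filtered with filterByExpr, scaled by TMM and tested with edgeR 4.0.16 (limma 3.58.1, R 4.3.3) by the quasi-likelihood test with robust estimation, each comparison on its own libraries, with Benjamini-Hochberg adjustment over all genes tested and a threshold of 0.05. Brains minus heads was an interaction contrast over 11 libraries. Values after ± are approximate SEs, the absolute log2 fold change divided by the square root of the F statistic of the edgeR test. DESeq2 1.42.0, RLE scaling, other filters, a replicate block and omission of each library were the alternatives. Summed marker levels were compared by exact two-sided permutation. The tests were first tried on simulated data. Positions and exon overlaps came from Ensembl annotation 115 on BDGP 6.54, where 67 genes had no match.

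The gene lists and the named genes were chosen with earlier results of these data known. Genes were named by rule: the 12 largest called changes in each direction with a mean of at least 10 CPM in the higher group and no overlap between groups, up to 4 members of a list in each direction under the same conditions, any member of a list of up to 15, and genes of the study's Aβ42 experiments. Other libraries of the table were not analysed here. Intervals and p-values cover the spread between libraries, and their number, not depth, limits the precision.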

Additional observations from a re-analysis of the deposited data

Results flagged for a closer look

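Aβ42 replicate 3 of the brains carried transcripts of digestive enzymes of the midgut at a summed 4518 CPM, a list outside the main comparison, against 99.1 to 107 CPM in control brains.

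For the genes below the Aβ42 effect in brains minus that in heads passed the test of the difference (edgeR, adjusted p under 0.05). On the log2 scale the effect was greater in brains by 0.91 for Hsc70-3, 0.93 for Gp93, 0.71 for Manf and 0.40 for Herp, all genes of the ER stress response that rose in both tissues. It was greater by 1.92 for Ldh, 2.04 for Cyp4p2, 1.90 for aos, 1.26 for Arc2, 1.29 for dl, 0.67 for kay, 0.45 for puc, 0.61 for ref(2)P, 0.41 for PHGPx, 0.63 for Fas3, 0.85 for SERCA and 0.48 for w.

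Clock genes differed by 3.58 for vri, 3.18 for tim, 1.96 for per, 0.63 for Pdp1, −1.06 for Clk and −0.83 for cry. Pdp1 had 868, 881 and 826 CPM in Aβ42 brains and 806, 849 and 949 CPM in control brains, and in heads 437 and 394 CPM in Aβ42 against 606, 759 and 706 CPM in controls.

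The difference was negative, with a lower value in brains, for CG10936 (−3.52), Hml (−1.41), ImpL2 (−1.28), apolpp (−0.77), mt:ND6 (−0.67), ITP (−0.63), IM33 (−0.60), Mtpalpha (−0.58), Egfr (−0.56), scu (−0.55), Mdh2 (−0.51), blw (−0.51), ND-19 (−0.47), Pdhb (−0.46), COX4 (−0.45) and ATPsynE (−0.45). Those of CG10936 and Clk were called under all 16 alternatives, while those of mt:ND6, ITP, ND-19, Pdhb, Mdh2, ATPsynE and apolpp were called under 1 to 4 of the 16.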

How the results depend on the processing

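In Aβ42 brains 960 genes rose and 722 fell at an adjusted p under 0.01. Rising genes numbered 1146 to 2057 and falling genes 826 to 2002 with 1 library left out. DESeq2, RLE scaling and both other filters gave counts within 1.5 times of the main ones. The replicate numbers of the groups did not pair the libraries (correlation of same-numbered deviations −0.30, −0.00 and −0.30), and a fit with the replicate block gave 1278 rising and 1165 falling genes. Of 141 genes named with values, 132 were called and 123 of these were called under every alternative at 0.05. No called gene changed sign. Hsp70Aa, Hsp68, mt:ND6, Lsp1beta, Cda9 and Obp99b lost their calls under the replicate block, mt:ND6 with DESeq2, and Hsp70Aa, mt:ND6, SIFa, Lsp1beta, Cda9, TotX and Obp99b with no filter on low counts. The cause was not tested.

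The difference between brains and heads depended most on the processing. Genes with a higher effect in brains numbered 221 with DESeq2, 241 with no filter, 219 with a mean count of at least 50, 13 with the replicate block and 13 to 225 with 1 library left out. Genes with a lower effect numbered 101 under RLE scaling, 72 with no filter, 82 with a mean count of at least 50, 13 with the replicate block and 28 to 610 with 1 library left out. The called genes were 77% higher with no filter and 72.8% with a mean count of at least 50, where the median difference was 0.12 and 0.071. With age, 256 to 674 genes rose and 442 to 848 fell with 1 library left out. Genes lower in repoGFP+ cells numbered 713 with DESeq2, 273 with the replicate block and 147 to 383 with 1 library left out. The cause was not tested.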

Other observations

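By chromosome, the small chromosome 4 stood apart. Of its 93 genes tested in brains, 5 rose and 27 fell (29%), with a median log2 fold change of −0.13, while 14.6 to 15.2% of genes fell on X and on the arms of chromosomes 2 and 3. In heads 2 of 94 rose and 36 fell, where 18.5% and 17.5% of all genes tested rose and fell. With age 2 of 92 rose and 12 fell, where the shares of all genes tested were 5.61% and 7.28%. In brains 13 of 96 fell without Aβ42 replicate 2, against 945 of 9898 over all genes tested. Without control replicates 1, 2 and 3, 15 of 99, 10 of 97 and 16 of 95 fell. The counts over all genes tested were then 826 of 10092, 863 of 10098 and 833 of 9960. Without Aβ42 replicate 1, 32 of 97 fell, against 2002 of 10092. These values were looked at after the main results were seen.

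Of 8 genes of the Y chromosome tested in brains, 4 rose (50%, against 16.0% of all genes tested) and 0 fell, with 3 of 8 rising in heads. They are CR41507, CR41509, CR46150 and FDY, named after their values were seen, with log2 fold changes of 1.64, 1.66, 3.38 and 1.02. Without Aβ42 replicate 3, 8 of 11 rose.

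Among xenobiotic enzymes, 12 of 71 P450 genes rose (16.9%) and 10 fell (14.1%), near the 16.0% and 15% of all genes tested. Without Aβ42 replicate 1 the count that rose was 31 and without any other library 7 or 8, and the count that fell was 6 without control replicate 1 or 3 and 13 without Aβ42 replicate 1 or 3. The glutathione S-transferase GstO3 had 20.7, 24.6 and 37.8 CPM in Aβ42 brains and 9.63, 11.9 and 9.66 CPM in control brains (log2 1.42 ± 0.24, edgeR adjusted p = 0.0074), while GstE14 had 6.15, 5.28 and 6.33 CPM in Aβ42 brains and 13.7, 12.7 and 12 CPM in control brains (−1.11 ± 0.12, adjusted p = 4.2e-04). Testis markers, none of which passed the filter, summed to 0.508, 0.135 and 12.1 CPM in Aβ42 brains and 0.563, 1.29 and 2.38 CPM in control brains.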
